A study of Mus musculus with 8 samples.

Results

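A set of 10 genes of voltage-gated calcium channels were followed in cultured mouse neurons with and without the kinase NUAK1. They were Cacna1a, Cacna1b, Cacna1c, Cacna1d, Cacna1e, Cacna1g, Cacna1h and Cacna1i, which encode pore-forming α1 subunits, and Cacna2d1 and Cacna2d3, which encode auxiliary α2δ subunits. Members were set by symbol, through the Ensembl identifier of each row in the table of raw counts, with earlier results of these data known. Other subunits of the same channels, some of them with positive genotype differences, are not members and are given further on. All 10 were found among 32726 gene identifiers, and all 10 passed the filter on low counts together with 16272 genes in total.

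Voltage-gated calcium channels open when the membrane is depolarised and let calcium into the cell. The α1 subunit forms the pore and the voltage sensor and sets the channel type. Cav1 (L-type) channels couple activity to transcription in the soma and dendrites, Cav2 (P/Q-, N- and R-type) channels trigger transmitter release at presynaptic terminals, and Cav3 (T-type) channels open at low voltage and shape firing. The α2δ subunits, extracellular proteins anchored to the membrane, and the cytoplasmic β subunits promote trafficking of the pore to the surface. In immature axons, calcium entry through these channels is known to influence growth cone motility and branching.

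The libraries came from primary neurons of mouse embryos, 4 of them from the Nuak1 knockout (KO1 to KO4) and 4 from the wild type (WT1 to WT4), collected after 5 days in vitro. Mice were kept on a C57Bl/6JRj background, and the labels give the genotype as KO or WT without naming the allele. Cortices were dissociated and grown without serum, as the methods of the study describe. The tissue label names cortex or hippocampus for every library, so the region is not assigned to single libraries. Each genotype had 2 libraries on sequencing lane A (KO1, KO4, WT1 and WT3) and 2 on lane B (KO2, KO3, WT2 and WT4). A strain label read BJ in KO1, KO2 and KO3, BK in KO4, WT2 and WT4, BO in WT1 and BQ in WT3, without an explanation of these codes. KO4 alone thus shared its strain label with WT libraries. In a fit with strain label as a term, the genotype difference therefore came from KO4 against WT2 and WT4 only. All values from that fit given below rest on KO4 as the single KO library. It gave log2 fold changes (KO minus WT) of -0.19 for Cacna1a (SE 0.27) and -0.30 for Cacna2d1 (SE 0.32).

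The libraries held 31247078 to 67155004 counts, with a median of 39224504. Nuak1, the targeted gene, was between 1.96 and 2.72 CPM (counts scaled to the library total) in the KO libraries and between 51.6 and 82.6 CPM in the WT libraries, a log2 fold change (KO minus WT) of -4.89 (SE 0.13, BH-adjusted p = 1.24e-07, edgeR). KO1 and WT1 stood apart from the other 6 libraries: on the first principal component, which held 51.9% of the variance of the 500 most variable genes, they lay at -27.6 and -28.4, whereas the others lay between 0.0733 and 22.6. Both were sequenced on lane A. The model carried 1 surrogate variable, the number estimated from the counts, which took values of -0.56 in KO1 and -0.62 in WT1 and of 0.048 to 0.39 elsewhere, and member values without both libraries are given below. Markers matched the label: 10 neuronal genes, among them the dendritic protein gene Map2, had sums of 8081 to 9197 CPM in KO libraries and 8126 to 9114 CPM in WT libraries.

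None of the 10 members passed the adjusted threshold of 0.05 between genotypes, whereas 0.0492% of all tested genes did (8 of 16272). DESeq2 and limma-voom also called 0 members. At an unadjusted p under 0.05, edgeR singled out 2 members, DESeq2 3 and limma-voom 2, where the same tool's share over all tested genes was 10.6% for edgeR, 9.6% for DESeq2 and 10.6% for limma-voom. The log2 fold change was negative for all 10 members, between -0.29 for Cacna1a and -0.0098 for Cacna1d, against 46.2% of all tested genes. The median was -0.12 for the members and 0.015 for all tested genes. The study's own criteria (absolute log2 fold change above 0.25 with an unadjusted p under 0.05) were applied here to the edgeR fit, not to the study's own model. By these criteria Cacna1a and Cacna2d1 were lower in KO, that is 2 of 10 members, while 3.53% of all tested genes met the same criteria in that direction. In these bulk libraries, fewer cells of one type and less RNA per cell cannot be told apart.

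**Figure D1:**
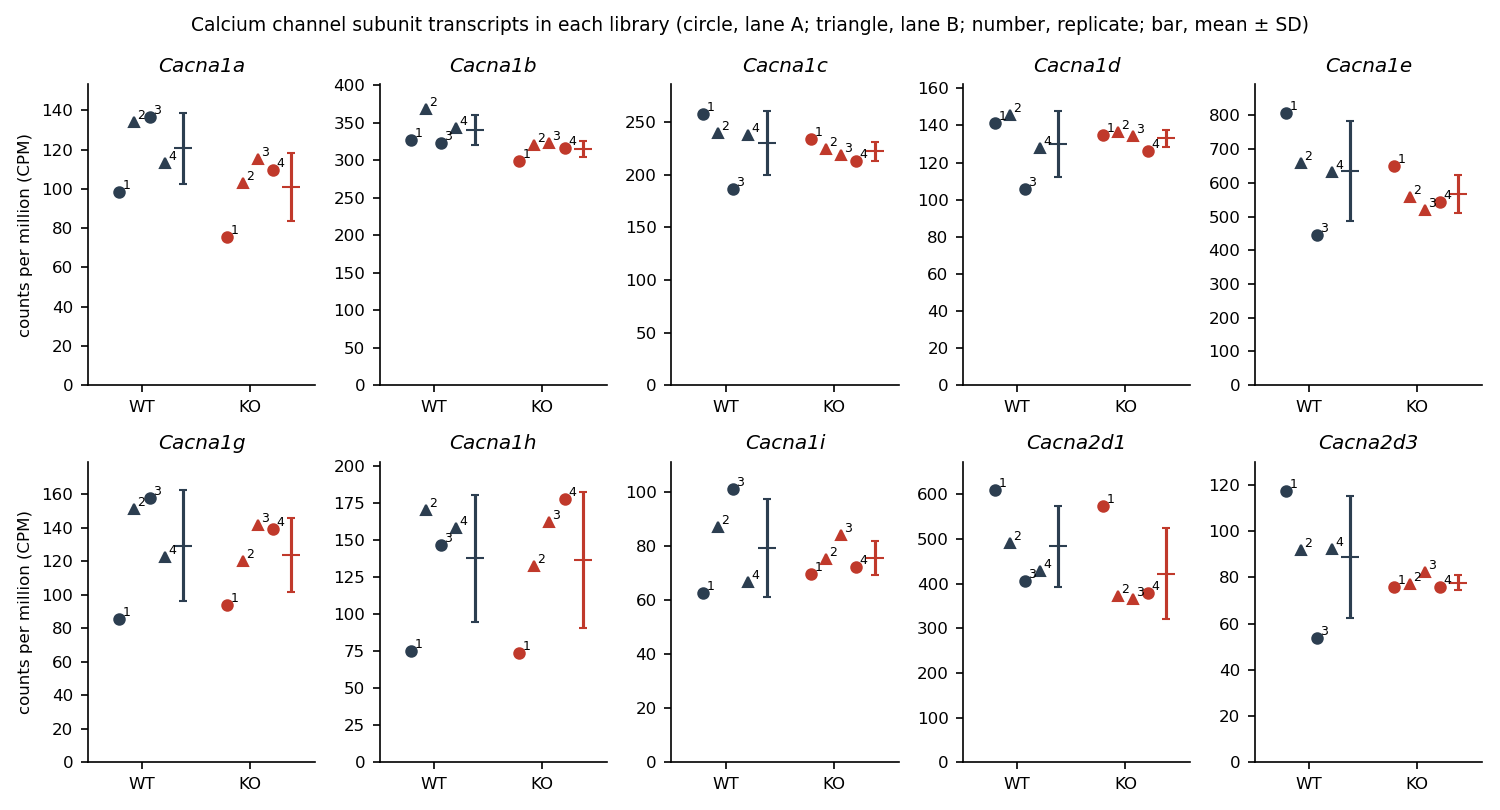
Level of each member in CPM (vertical axis, starting at 0) in the 4 WT and 4 KO libraries. Circles are lane A, triangles lane B, numbers are replicate numbers and bars are the mean ± SD of 4 libraries; in 9 of the 10 panels the genotypes overlap, and for Cacna1b the highest KO library (322.6) lies just under the lowest WT library (323.3).

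The Cav2 genes encode the presynaptic channels. Cacna1a (ENSMUSG00000034656, chr8:84338631-84640251 in GRCm38) encodes the pore of the P/Q-type channel, which drives release at most mature central synapses. It was measured at 75.7, 103, 115 and 110 CPM in KO1 to KO4 and at 98.5, 134, 137 and 113 CPM in WT1 to WT4. The lowest value of each genotype was in replicate 1, and the genotypes overlapped, since KO2, KO3 and KO4 lay above WT1 and KO3 also lay above WT4. Means were 101 ± 17.5 CPM (SD, n = 4) for KO and 121 ± 18.1 CPM (SD, n = 4) for WT. Its log2 fold change was -0.29 (SE 0.078, 95% interval -0.46 to -0.11), with the smallest p of the members (edgeR adjusted p = 0.314). Lane A alone gave -0.36, lane B alone -0.25, and all libraries but KO1 and WT1 -0.26. Across 22 alternative settings Cacna1a was negative in all 22 and met the study's criteria in 14. It did not meet them without KO1, WT1 or WT2 (-0.25 without WT2), on either lane alone, with lane or strain label as a term, or with no surrogate variable (-0.30, SE 0.16). The single-lane, lane-term and strain-label fits also held no surrogate variable, so these changes cannot be told apart there. Lane as a term gave -0.30 (SE 0.16). On the opposite strand, the noncoding Gm16183 shares 435 exon bases with Cacna1a, and since strand use in the counting is not stated, its reads could have been counted in either gene or left out.

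Cacna1b (ENSMUSG00000004113, chr2:24603860-24763200) encodes the N-type pore, prominent at immature presynaptic terminals. It was read at 299, 321, 323 and 316 CPM in KO1 to KO4 and at 326, 368, 323.3 and 342 CPM in WT1 to WT4. This was the only member in which every KO library lay below every WT library, by a margin of less than 1 CPM between KO3 and WT3, and 0.86% of all tested genes were separated in this direction. The spread between libraries was also small, with 314 ± 10.8 CPM for KO and 340 ± 20.3 CPM for WT. The log2 fold change of -0.15 (SE 0.069, 95% interval -0.30 to 0.0046) did not pass the test (edgeR adjusted p = 0.485). Lane A gave -0.10, lane B gave -0.21, and leaving out KO1 and WT1 gave -0.14. Leaving out WT2 alone gave -0.095.

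The sequence upstream of Cacna1b is shown because it is the member whose libraries separated, and that of Cacna1i because it is the member with the lowest level. Both come from the RefSeq promoter table of GRCm38.p6, which held 10 entries for 7 of the 10 members (no entry was used for Cacna1a, Cacna1g and Cacna1h). Windows were the 200 bases before the start site, and only bases outside the RefSeq span of the gene are printed. They read 5′ to 3′ on the strand of the gene, at chr2:24763201-24763352 (minus strand) and chr15:80287038-80287237 (plus strand), with capitals marking GGGCGG, the core of a GC box bound by Sp-family factors, searched on both strands.
Cacna1b: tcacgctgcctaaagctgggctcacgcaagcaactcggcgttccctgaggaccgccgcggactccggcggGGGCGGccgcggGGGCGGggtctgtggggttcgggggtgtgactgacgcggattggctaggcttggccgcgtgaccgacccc
Cacna1i: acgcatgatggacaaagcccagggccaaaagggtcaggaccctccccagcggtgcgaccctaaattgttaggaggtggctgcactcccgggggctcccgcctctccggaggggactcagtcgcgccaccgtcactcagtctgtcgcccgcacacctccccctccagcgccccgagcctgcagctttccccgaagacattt
The Cacna1b stretch held 2 such matches and 72.4% G or C, and the Cacna1i stretch held none and 65.5% G or C. A match was present in 5 of the 7 members, that is in 5 of the 10 member windows, and in 31% of all 32851 windows of the same length. TGACGTCA, the cyclic AMP response element, was in none of the 10 member windows and in 1.47% of all windows. A match describes the letters only.

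Cacna1e (ENSMUSG00000004110, chr1:154390806-154884785) encodes the R-type pore and was the Cav2 gene with the most reads. Its levels were 649, 557, 521 and 545 CPM in KO1 to KO4 and 808, 658, 447 and 632 CPM in WT1 to WT4. The WT libraries enclosed all KO libraries, with the highest value in WT1 and the lowest in WT3. The log2 fold change was -0.20 (SE 0.11, 95% interval -0.43 to 0.036; edgeR adjusted p = 0.536), with -0.10 on lane A alone, -0.33 on lane B alone and -0.14 when KO1 and WT1 were left out. Without WT3 it was -0.31 (adjusted p = 0.0832), and Cacna1e then met the study's criteria, whereas without WT2 it was -0.12.

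Cav1 genes encode the L-type channels. Cacna1c (ENSMUSG00000051331, chr6:118587240-119197384) is the main L-type pore of cortical neurons. In KO1 to KO4 it was at 234, 224, 219 and 213 CPM, and in WT1 to WT4 at 258, 240, 186 and 238 CPM. WT3 was below every KO library and the other 3 WT libraries were above every KO library. Its log2 fold change was -0.089 (SE 0.081, 95% interval -0.27 to 0.091; edgeR adjusted p = 0.717), with -0.17 without WT3, -0.031 without WT2 and -0.048 without KO1. Cacna1d (ENSMUSG00000015968, chr14:30039941-30491156), the L-type pore that opens at less depolarised potentials, was at 135, 137, 134 and 126 CPM in KO1 to KO4 and at 141, 145, 106 and 128 CPM in WT1 to WT4. Again WT3 was the lowest library, and the KO libraries lay within the WT range. The log2 fold change of Cacna1d was -0.0098 (SE 0.095, 95% interval -0.22 to 0.20; edgeR adjusted p = 0.981), with 0.054 on lane A and -0.084 on lane B, and thus had no stable direction. Chdh, on the opposite strand, shares 518 exon bases with Cacna1d.

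Cav3 genes encode the T-type channels. Cacna1g (ENSMUSG00000020866, chr11:94408391-94474400) was at 93.8, 120, 141 and 139 CPM in KO1 to KO4 and at 85.6, 151, 158 and 123 CPM in WT1 to WT4. Cacna1h (ENSMUSG00000024112, chr17:25374285-25436334) was at 74.1, 133, 162 and 178 CPM in KO1 to KO4 and at 75.2, 170, 147 and 158 CPM in WT1 to WT4. For both genes KO1 and WT1 were the lowest libraries of their genotype, and for Cacna1h these libraries lay at 74.1 and 75.2 CPM while the other 6 lay between 133 and 178 CPM. Cacna1i (ENSMUSG00000022416, chr15:80287238-80398292), the T-type pore of thalamic and other central neurons, was at 69.8, 75.3, 84.2 and 72.4 CPM in KO1 to KO4 and at 62.5, 87.2, 101 and 66.5 CPM in WT1 to WT4, so that the WT libraries enclosed the KO libraries. The log2 fold changes were -0.064 for Cacna1g (SE 0.080, 95% interval -0.24 to 0.12), -0.030 for Cacna1h (SE 0.12, -0.29 to 0.23) and -0.084 for Cacna1i (SE 0.11, -0.34 to 0.17), with adjusted p-values of 0.809, 0.947 and 0.824 from edgeR. With a single library left out, Cacna1g ranged from -0.11 (without WT4) to -0.0017 (without WT2) and Cacna1i from -0.17 (without WT4) to -0.0072 (without WT3). Cacna1h had opposite signs by lane, 0.18 on lane A and -0.22 on lane B, and shares 158 exon bases with Tpsg1 on the opposite strand.

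The α2δ genes encode the targets of gabapentinoid drugs (Cacna2d1) and a related subunit (Cacna2d3). Cacna2d1 (ENSMUSG00000040118, chr5:15934264-16374511) was at 574, 372, 366 and 379 CPM in KO1 to KO4 and at 609, 491, 406 and 428 CPM in WT1 to WT4. In each genotype replicate 1 was the highest library, and KO2, KO3 and KO4 lay below all WT libraries. The log2 fold change was -0.26 (SE 0.089, 95% interval -0.46 to -0.061; edgeR adjusted p = 0.374), with -0.12 on lane A alone, -0.39 on lane B alone and -0.28 when KO1 and WT1 were left out. It met the study's criteria in 12 of 22 alternative settings, and not without KO2, KO3 or WT2, on lane A alone, with lane or strain label as a term, with no or 2 surrogate variables, with the replicate block, or with no filter. Cacna2d3 (ENSMUSG00000021991, chr14:28904943-29722775) was at 75.9, 77.0, 82.5 and 75.7 CPM in KO1 to KO4 and at 117, 92, 53.8 and 92.3 CPM in WT1 to WT4. Its KO libraries spanned less than 7 CPM, whereas WT3 lay below and the other 3 WT libraries lay above all of them. The log2 fold change was -0.20 (SE 0.17, 95% interval -0.60 to 0.19; edgeR adjusted p = 0.696), and single libraries moved it either way, to -0.39 without WT3 (SE 0.076, adjusted p = 0.0527), -0.043 without KO1, -0.12 without WT1 and -0.12 without WT2.

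**Figure D2:**
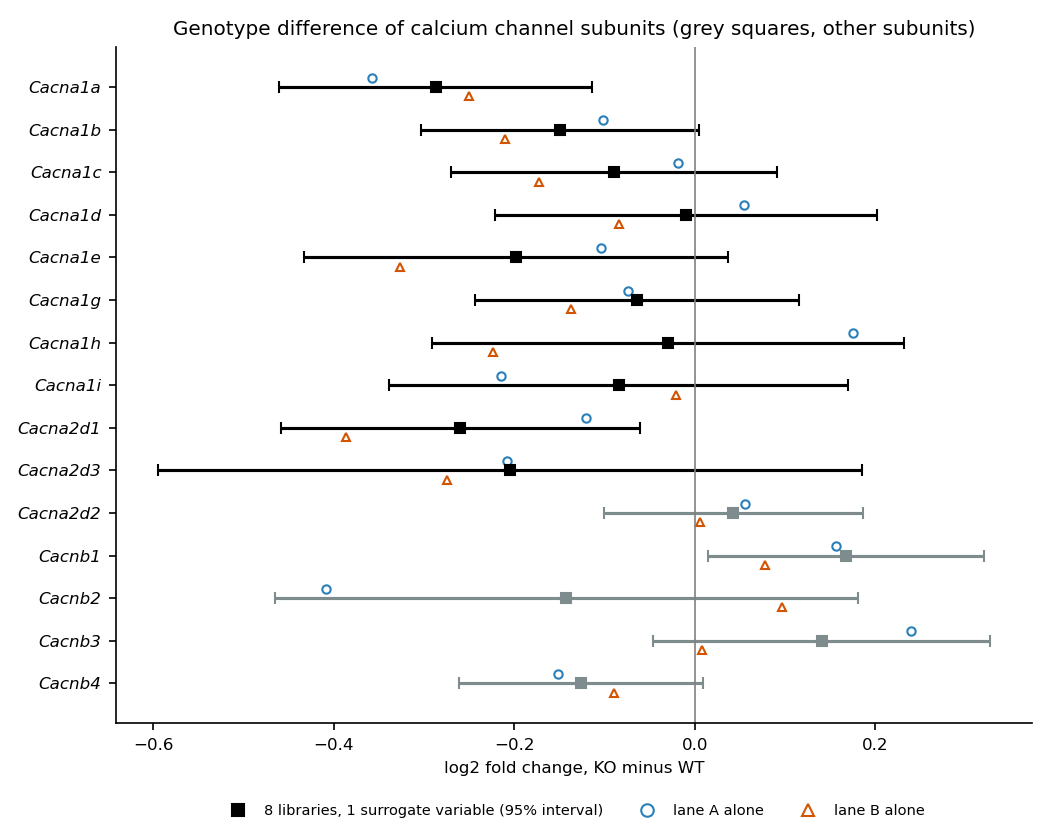
Log2 fold change of KO against WT (horizontal axis) for the 10 members (black) and the other α2δ and β subunits with appreciable counts (grey), with 95% intervals over 8 libraries. Circles and triangles are the same contrast on lane A or lane B alone; all 10 member squares lie left of 0, and the intervals of Cacna1a and Cacna2d1 exclude 0 before adjustment.

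The 95% intervals, before any adjustment for the number of genes tested, extended 0.15 to 0.39 on the log2 scale to each side of a member's estimate. Member counts ranged from 1954 to 44155 per library. Without KO1 and WT1, the log2 fold changes not given above were -0.052 for Cacna1c, 0.028 for Cacna1d, -0.14 for Cacna1g, -0.041 for Cacna1h, -0.17 for Cacna1i and -0.054 for Cacna2d3, and Cacna1a and Cacna2d1 still met the study's criteria. This fit held no surrogate variable, whereas fits that left out a single library kept it, so their values are not from the same model. The genotype difference was compared between lanes by an interaction term. No member passed (smallest unadjusted p = 0.516, adjusted p = 1.0, edgeR), 0 members and 256 of 16272 genes had an unadjusted p under 0.05, and the background of adjusted calls was 0.0%. Within lanes, 8 members had a negative log2 fold change on lane A (median -0.10) and 10 on lane B (median -0.22), each with 2 libraries per genotype. Over all genes tested within a lane, 50.5% were negative on lane A (median -0.0026) and 49.7% on lane B (median 0.0014).

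Levels between genes were compared as CPM per kb of exon. In WT libraries the order ran from Cacna2d1 (57.6 ± 10.8 CPM per kb) through Cacna1e (50.1 ± 11.7), Cacna1b (34.2 ± 2.04), Cacna1c (26.1 ± 3.48), Cacna2d3 (24.1 ± 7.10), Cacna1h (14.1 ± 4.37), Cacna1d (13.9 ± 1.91), Cacna1g (12.9 ± 3.27) and Cacna1a (10.6 ± 1.59) to Cacna1i (8.04 ± 1.83; SD, n = 4). Of the 9 pairs of neighbours in this order, only Cacna1b and Cacna1c had ranges that did not overlap. Thus Cacna1a, although it had the smallest p, was among the scarcest pore transcripts per length at this stage. In KO libraries the order was the same, except that Cacna1d (14.2 ± 0.491 CPM per kb) came before Cacna1h (14.0 ± 4.68), and neighbours from Cacna1e to Cacna1d did not overlap.

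The summed α1 level was 159 ± 4.16 CPM per kb in KO, with 153 to 162 per library, and 170 ± 12.9 in WT, with 153.1 to 184 per library. Cav2 pores made up 53.8 ± 2.63% of this sum in KO and 55.8 ± 3.83% in WT, Cav1 pores 24.9 ± 1.5% and 23.5 ± 1.90%, and Cav3 pores 21.3 ± 4.06% and 20.7 ± 5.68%. Each of these 3 differences was smaller than the SD of either genotype. The R-type gene Cacna1e was the largest single share, at 25.3% to 33.4% in KO and 23.0% to 37.0% in WT libraries, and Cacna1b followed at 19.7% to 20.4% and 19.1% to 21.2%. The Cav3 share was lowest in KO1 (15.7%) and WT1 (13.1%) and highest in WT3 (26.8%).

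**Figure D3:**
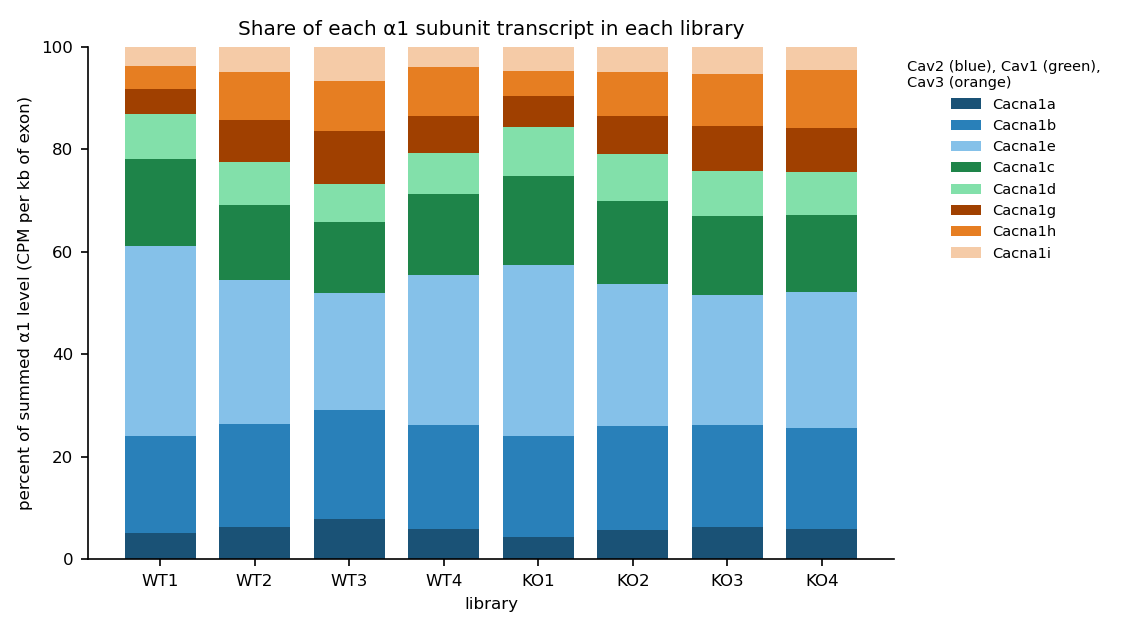
Share of each α1 gene in the summed α1 level (vertical axis, percent of CPM per kb of exon) in each library, with Cav2 genes in blue, Cav1 genes in green and Cav3 genes in orange. The Cav2 blocks fill 51.6% to 61.1% of every bar, and the orange blocks are thinnest in WT1 (13.1%) and KO1 (15.7%).

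In several libraries the members deviated with the base composition of their transcripts. The longest annotated transcript held 40.7% G or C for Cacna2d1, 49.1% to 49.2% for Cacna1d, Cacna1e and Cacna2d3, 52.7% and 52.9% for Cacna1c and Cacna1b, and 58.1% to 60.0% for Cacna1g, Cacna1a, Cacna1i and Cacna1h. In KO1 the log2 CPM minus the mean of the other 3 KO libraries was 0.64 for Cacna2d1 and -1.06 for Cacna1h. The same difference in WT1 was 0.49 and -1.05, whereas in WT3 it was -0.92 for Cacna2d3 and 0.47 for Cacna1i. Across the 10 members, Spearman's rho between G and C content and this deviation was -0.87, 0.42, 0.82 and 0.73 in KO1 to KO4 and -0.83, 0.64, 0.72 and 0.018 in WT1 to WT4. Since the deviations of the 4 libraries of a genotype sum to 0, the positive values in part mirror those of KO1 and WT1. Across all 13636 tested genes with a known transcript (83.8% of those tested), it was -0.77 in KO1, -0.76 in WT1, 0.66 in KO3 and 0.51 in WT3. These correlations describe genes that share a library and are not independent, and the part of base composition in the genotype values was not tested.

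**Figure D4:**
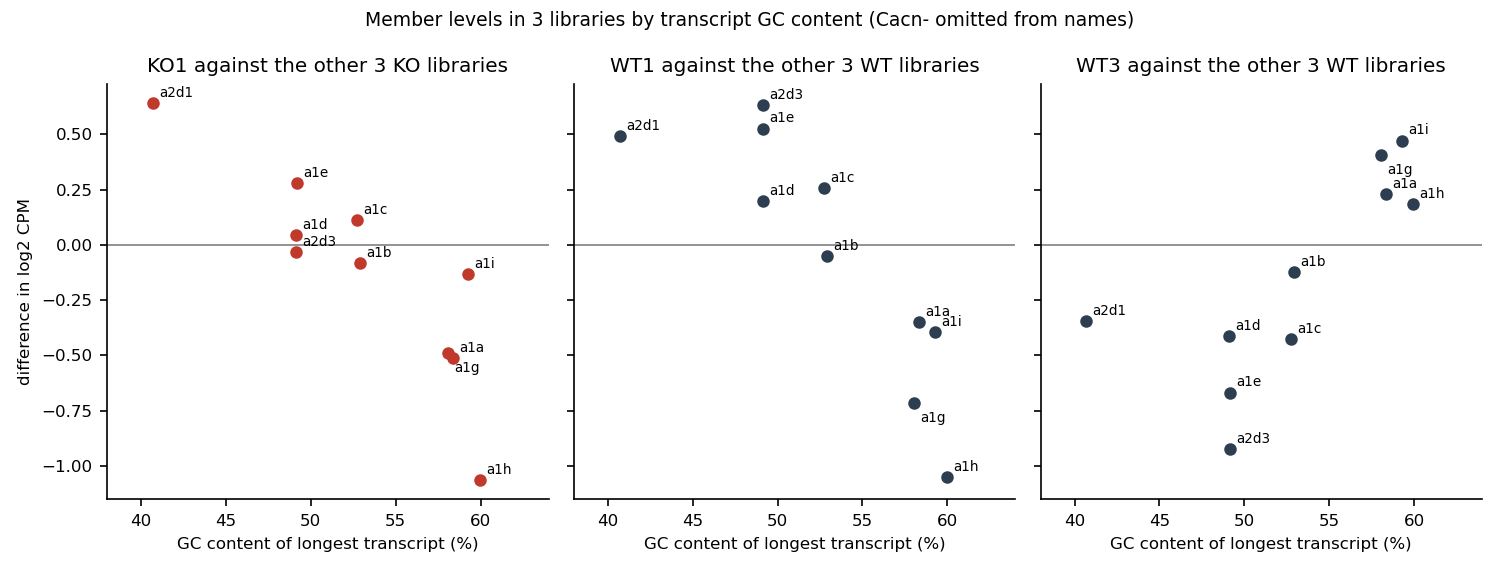
Difference in log2 CPM of each member between 1 library and the other 3 of its genotype (vertical axis) against the G and C content of its longest transcript (horizontal axis, percent), for KO1, WT1 and WT3. Points run downwards in KO1 and WT1 (rho -0.87 and -0.83) and upwards in WT3 (rho 0.72).

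The other subunits of these channels were read for comparison. The retinal L-type gene Cacna1f and the muscle gene Cacna1s had at most 13 counts in a library and were not tested. Of the β subunits, Cacnb3 was the most abundant per kb of exon, at 63.4 ± 7.57% of the summed β level in KO and 61.8 ± 7.07% in WT. Without division by exon length its mean shares were 45.0% and 42.6%. Cacnb4 then exceeded it in KO1 (48.4% against 32.1%) and WT1 (52.3% against 30.4%). The log2 fold change of Cacnb3 was 0.14 (SE 0.084), that of Cacnb1 was 0.17 (SE 0.068, edgeR adjusted p = 0.445), that of Cacnb2 was -0.14 (SE 0.14) and that of Cacnb4 was -0.13 (SE 0.060). Cacnb2 had opposite signs on the lanes (-0.41 on lane A, 0.096 on lane B), and Cacnb3 had 0.24 on lane A and 0.0079 on lane B. Cacna2d2, the third brain α2δ gene, had 0.043 (SE 0.064). Cacna2d4, Cacng1 and Cacng6 were each under 1 CPM in every library, with log2 fold changes of -0.21, 0.28 and -0.52 and standard errors of 0.30, 0.31 and 0.39. When the strain label entered the model, Cacna2d4 had 0.37 and Cacng6 0.12, the opposite sign. Cacng1 ranged from 0.068 on lane B alone to 0.50 without WT4. Of these 8 tested genes 4 were negative and 4 positive, with a median of -0.042.

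The γ subunits related to stargazin act on AMPA receptors as transmembrane AMPA receptor regulatory proteins (TARPs). Cacng4 was the most abundant of them, with means of 191 (KO) and 184 (WT) CPM and a log2 fold change of 0.043. The other values were -0.035 for Cacng2, 0.089 for Cacng5, 0.070 for Cacng7 and -0.27 for Cacng8, and none of the 6 genes had an unadjusted p under 0.05. The sign changed in 4 of the 22 alternatives for Cacng2, in 3 for Cacng4 and in 5 for Cacng5. Cacng7 ranged from 0.0037 on lane B alone to 0.12 without WT2, and Cacng8 from -0.44 without WT3 to -0.017 on lane A alone. Cacng3 was at 6.55, 22.1, 17.2 and 8.58 CPM in KO1 to KO4 and at 8.83, 10.8, 33.1 and 14.6 CPM in WT1 to WT4. The 2 lanes gave -1.47 (lane A) and 0.57 (lane B) for its log2 fold change, all libraries together gave -0.23, and the interaction passed an adjusted test only in a fit without the filter on low counts (adjusted p = 0.00729).

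Genes around the channels in calcium handling were counted in the same way, and no gene of these lists passed the adjusted threshold with the main model. The 12 tested pumps and exchangers, which extrude or store calcium, all had a negative log2 fold change, with a median of -0.24, and 6 of them had an unadjusted p under 0.05, beside 5.75% of all tested genes in that direction. The lowest p belonged to Slc8a1, the sodium-calcium exchanger NCX1, which was at 88.0, 76.9, 70.3 and 91.3 CPM in KO1 to KO4 and at 157, 118, 133 and 106 CPM in WT1 to WT4. Every KO library lay below every WT library, and the log2 fold change was -0.69 (SE 0.12, edgeR adjusted p = 0.139), with -0.72 on lane A and -0.68 on lane B. Over the 22 alternatives its estimate ranged from -0.81 without KO4 to -0.31 in the model that held the strain label. This gene passed with DESeq2 (adjusted p = 7.85e-05), on lane B alone (0.0108) and with no filter (0.0417). Atp2b1, a plasma membrane calcium ATPase, had -0.35 (SE 0.097, edgeR adjusted p = 0.325, DESeq2 adjusted p = 0.0434), with -0.44 on lane A and -0.22 on lane B.

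Among the 14 genes of intracellular release and store-operated entry, 11 were negative (median -0.065). Itpr1, the main neuronal inositol trisphosphate receptor, was at 68.8, 84.0, 71.2 and 96.6 CPM in KO1 to KO4 and at 78.3, 117, 142 and 105 CPM in WT1 to WT4. KO1 and KO3 lay below all WT libraries and KO2 and KO4 lay above WT1 alone, with a log2 fold change of -0.46 (SE 0.11, edgeR adjusted p = 0.248, DESeq2 adjusted p = 0.0172, edgeR on lane B alone 0.0413). Orai3, a store-operated channel, had 0.34 (SE 0.13, edgeR adjusted p = 0.402), with 0.056 on lane A and 0.52 on lane B. Of 26 tested genes on the list of channel partners, 15 were negative (median -0.032). Nalcn, the sodium leak channel and thus a channel of its own rather than a partner, had the smallest p of these. Its value was -0.43 (SE 0.094, edgeR adjusted p = 0.241, DESeq2 adjusted p = 0.00961, edgeR with no filter 0.0247), with -0.57 on lane A and -0.24 on lane B. Dpysl2 (CRMP2, a partner of N-type channels) followed with 0.21 (SE 0.081, edgeR adjusted p = 0.410). The Dpysl2 estimate ranged from -0.010 to 0.27 over the 22 alternatives and was negative in 1 of them, the model holding the strain label.

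On the list named mitochondrial calcium uptake, 7 of 10 genes were positive (median 0.044) and 0 had an unadjusted p under 0.05. The list also holds an exchanger, so this count gives no direction of calcium flux. The values were 0.13 (SE 0.068) for Smdt1, which encodes the uniporter regulator EMRE, and 0.44 (SE 0.27) for Slc8b1, the mitochondrial sodium-calcium exchanger. That of Slc8b1 ran from -0.24 in the strain-label model, its only negative estimate in 22 alternatives, to 0.59 without KO4. The 20 calcium-dependent kinases, phosphatases and transcription factors were split into 11 negative and 9 positive (median -0.011), with 0.19 for Camk1g and 0.18 for Crtc1 as those of smallest p (edgeR adjusted p = 0.337 and 0.447).

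**Figure D5:**
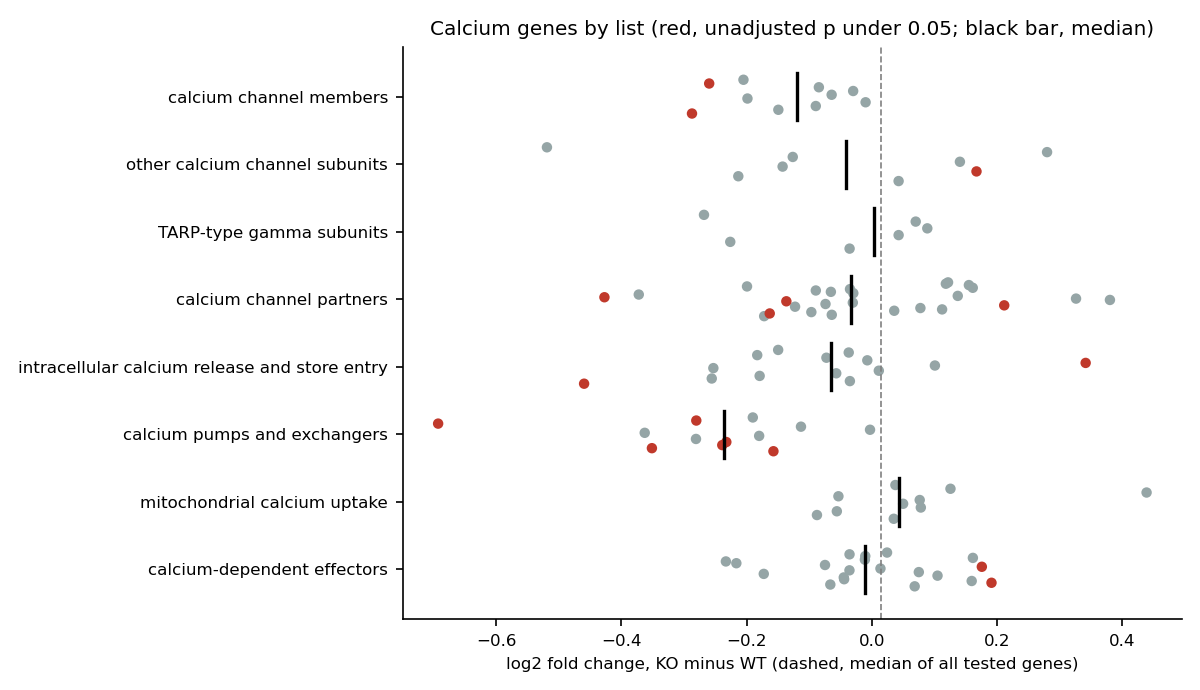
Log2 fold change of KO against WT (horizontal axis) for each tested gene of the members and 7 other calcium lists, with the list median as a black bar and genes of an unadjusted p under 0.05 in red. Medians lie between -0.24 for pumps and exchangers and 0.044 for mitochondrial uptake, and the dashed line is the median of all tested genes (0.015).

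The genes most like Cacna1a across the 8 libraries were sought by the mean absolute difference of log2 CPM, each centred on its own mean. Dync1h1, the cytoplasmic dynein heavy chain, came first with 0.046, followed by App, the amyloid precursor protein gene, with 0.052 and Slc8a2, another sodium-calcium exchanger gene and one of the 12 pumps and exchangers above, with 0.053. Their log2 fold changes were -0.28, -0.25 and -0.28, values that the choice by likeness over the same libraries fixes near that of Cacna1a. Among the other members, Cacna1g was closest with 0.11, at rank 107 of all tested genes, and Cacna2d1 was farthest with 0.37.

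Markers of cell types that such cultures hold were summed in each library. Genes of glutamatergic projection neurons, led by Neurod6, had sums of 1195 to 1424 CPM (KO) and 1167 to 1376 CPM (WT), with 1 of 11 at an unadjusted p under 0.05. Interneuron genes, led by Gad1, summed to 237 to 377 CPM and 212 to 337 CPM (0 of 10), astrocyte genes, led by Slc1a3, to 1206 to 2287 CPM and 1331 to 1844 CPM (0 of 10), and oligodendrocyte lineage genes, led by Pdgfra, to 581 to 684 CPM and 542 to 663 CPM (1 of 8). Progenitor and mitosis genes, led by Nes, had sums of 313 to 421 CPM (KO) and 193 to 338 CPM (WT). Of these, 4 of 10 were higher in KO by the study's criteria, which 2.22% of all tested genes met in that direction. WT3, the lowest library for several members, had the lowest progenitor sum (193 CPM) and the second lowest astrocyte sum (1331 CPM). Microglial genes, led by Cx3cr1, summed to 3.88 to 47.6 CPM and 4.38 to 20.4 CPM (0 of 8 tested), and genes of endothelium and fibroblasts, led by Dcn, to 20.5 to 40.2 CPM and 10.5 to 51.8 CPM (0 of 9 tested), with Cldn5 at 3 counts or fewer in every library. Of the 8 tested microglial genes, 7 had a positive log2 fold change (median 1.38), and both the highest sum (KO3) and the lowest (KO4) were in KO libraries. The part of cell makeup in the member values was not tested.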

How the data were processed

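Poly-A RNA of 4 KO and 4 WT cultures was sequenced with a stranded kit. The deposited values are raw counts per Ensembl gene, which the authors made, per the study's methods and the submitters' processing notes, by demultiplexing with bcl2fastq 2.17.1.14, trimming with cutadapt 1.10, removing ribosomal reads with Bowtie2 2.2.8, aligning to mm10 with STAR 2.5.3a and counting unique reads with HTSeq 0.6.1p1 in union mode. Replicates were not pooled, and unique counting lowers genes with near-identical copies. The authors tested with DESeq2, surrogate variables and hypothesis weighting. The labels and the methods give different read layouts, and strand use in the counting is not given in the sources used here.

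Here the test was edgeR 4.0.16 under R 4.3.3 (filterByExpr by genotype, TMM, robust quasi-likelihood F test, all 8 libraries, 16272 genes) with 1 surrogate variable from svaseq (sva 3.50.0), Benjamini-Hochberg (BH) adjustment over all tested genes and a threshold of 0.05. The genotype by lane interaction was fitted without a surrogate variable, leaving 4 residual degrees of freedom. CPM are counts divided by the library total and scaled to a common size. Log2 CPM, used for base composition, principal component, likeness and replicate pairing, instead had TMM-scaled totals and a prior count of 2. Exon length (union of exons) and G and C content came from GENCODE M1 on NCBIM37 by Ensembl identifier, for 23260 of 32726 identifiers, and positions from RefSeq GRCm38.p6 by symbol, with 11 of 194 list genes matched through an older symbol. The script was tested on simulated data. Libraries of 1 group differed by more than sampling noise. Where the labels do not say that libraries came from separate animals, p-values measure the spread between these libraries, which may be technical; the study's methods name 4 animals per condition.

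Named genes were Nuak1, the members, other tested subunits, the genes past the adjusted threshold in each calcium list or else the 2 with the smallest p, the most abundant gene of each marker list and the 3 genes most like the member of smallest p. Cldn5 and Ryr3 were named after their values were seen, and genes on the opposite strand for their overlap. Members and lists were chosen with earlier results of these data known. Alternatives covered surrogate variables, lane, strain label or replicate number as a term, size factors, filters, DESeq2 1.42.0, limma-voom (limma 3.58.1), single lanes and leaving out libraries. Fits on single lanes, with lane or strain label as a term, and without both KO1 and WT1 held no surrogate variable.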

Additional observations from a re-analysis of the deposited data

Results flagged for a closer look

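In each genotype, the library farthest from the other 3 was compared with the range of the group for 25 genes (Nuak1 and the 24 tested channel subunits), in 50 groups of 4 libraries. A gap, as a share of the range, above Dixon's 95% critical value was taken as far from the others, which chance gives in about 5% of groups, and 5 groups passed. One of them was a member: Cacna2d1 was at 574 CPM in KO1, whereas the other KO libraries lay between 366 and 379 CPM. Cacnb3 was at 76.7 CPM in WT1, where WT2, WT3 and WT4 had 162 to 168 CPM. Cacng4 was at 132 CPM in KO1, against 207 to 218 CPM, and Cacng7 at 59.7 CPM in KO1, against 95.1 to 97.7 CPM. Cacng6 was at 0.287 CPM in KO1, against 0.364 to 0.376 CPM, a level of few counts. Of the 5 values, 4 were in KO1 and 1 in WT1, the libraries that stood apart on the first principal component.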

How the results depend on the processing

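No member passed the adjusted threshold under any of the 22 alternatives, and the lowest adjusted p of a member was 0.0527, for Cacna2d3 without WT3. The count of members by the study's criteria (2) was 0 on lane A alone, with lane as a term, with no surrogate variable or with strain label as a term, 1 with no filter or with the replicate block, 3 on lane B alone (Cacna1e, Cacna2d1 and Cacna2d3, without Cacna1a), 2 with 2 surrogate variables (Cacna1a and Cacna1e), and 0 to 4 with a library left out (0 without WT2, 1 without KO1, KO2, KO3 or WT1, 4 without WT3). The 8 genes past the adjusted threshold became 4 with 2 surrogate variables, 4 with lane as a term, 4 with no surrogate variable, 168 with DESeq2, 2 with at least 10 counts in every library, 0 on lane A and 99 on lane B, 45 with no filter, 3 with the replicate block, 1 with the strain label, 3 without both KO1 and WT1, and 3 to 91 with a library left out (91 without WT3, 3 without KO3, WT1 or WT2, 4 without KO1 or KO2). Nuak1 had -4.81 on lane A and did not pass there. Fits on single lanes, with lane or strain label as a term, and without both KO1 and WT1 also dropped the surrogate variable, so these changes cannot be told apart. In the strain-label fit, the genotype difference rested on KO4 against WT2 and WT4. The cause of these shifts was not tested.

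The direction reversed for Cacna1d on lane A (0.054), with limma-voom (0.00051), without both KO1 and WT1 (0.028) and with a library left out (-0.098 to 0.085, above 0 without KO1 at 0.035 and without WT2 at 0.085). It reversed for Cacna1g with the strain label (0.0020). For Cacna1h it reversed on lane A (0.18), with the strain label (0.097) and with a library left out (-0.14 to 0.044, above 0 without KO1, WT1, WT2 or WT4 at 0.011, 0.0067, 0.044 and 0.0041). The other 7 members were negative under all 22 alternatives. The median of the 10 members (-0.12) was -0.22 on lane B and -0.18 to -0.067 with a library left out, nearest to 0 without WT2 and farthest without WT3. Without division by exon length, Cav1 pores took 21.3% of the α1 sum in KO and 19.9% in WT, and Cav2 pores 58.8% and 60.7%. List medians changed sign for other subunits (0.028 without KO1, 0.10 without WT1, -0.060 to 0.10 over libraries left out), TARPs (-0.010 with no surrogate variable, -0.010, -0.060 and -0.043 without KO2, KO3 and WT4, up to 0.029), partners (0.030 and 0.019 without WT1 and WT3, down to -0.050) and effectors (0.012, 0.012, 0.039 and 0.050 without KO3, KO4, WT1 and WT3, down to -0.042). With a library left out, the adjusted calls were 0 to 1 in release and store entry (Ryr3 without WT3) and 0 to 1 in pumps and exchangers (Slc8a1 without KO4).

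Apart from replicate 1, equal replicate numbers did not pair the libraries. Correlations of deviations from the group means were 0.80 for KO1 with WT1 and 0.0023 to 0.25 for the other pairs of equal number. Of the KO libraries, 1 (KO1) correlated best with its own number. With the replicate block, Cacna1a had -0.28 and Cacna2d1 -0.22. Every member had at least 1954 counts in every library.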
